A study of Mus musculus with 10 samples.

Results

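The genes described here make glucose in the liver or carry and answer the insulin signal. They are 10 genes that were chosen by name, 4 of them enzymes of gluconeogenesis (Pck1, G6pc, Fbp1 and Pcx), 2 regulators of transcription (Ppargc1a and Foxo1), 3 parts of the insulin receptor pathway (Insr, Irs1 and Irs2) and 1 secreted protein (Igfbp1). All 10 were among the 15089 named genes tested, and they were read by 13 of the 56605 probes on the array. Liver RNA came from male C57BL/6J mice, an inbred strain that becomes obese on fatty food. The HFD + ethanol mice (n = 5) were kept on high-fat food for 4 months and also drank ethanol in the last 3 of them, with a daily dose per kg of body weight of 5 g in week 1 and of 10 g from then on. The HFD control mice (n = 5) had the same food for the same 4 months and no ethanol. Every array held 1 animal, picked at random from its group, and no group on a standard diet entered these comparisons. The labels used here do not give the hour of death or how long before it the mice had last eaten.

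Gluconeogenesis builds glucose from lactate, glycerol and amino acids, and the liver carries most of it during fasting. Insulin restrains it. The hormone binds its receptor, the receptor acts through insulin receptor substrates on the kinase AKT, and AKT keeps the transcription factor FOXO1 out of the nucleus, where FOXO1 would raise genes such as G6pc, Pck1, Igfbp1 and Irs2. Glucagon acts the other way through cAMP and the factor CREB, which raises Pck1 and Ppargc1a. Liver insulin resistance, common in obesity, is known for glucose production that insulin no longer holds back.

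The start regions of 4 members are printed because they carry, or lack, short letters of these 2 opposing signals. They are RefSeq windows of build GRCm38.p6, from 250 bases before the transcription start to 50 bases after it, written 5′ to 3′ on the gene's strand. Capitals mark a match to the insulin response core CAAAACA, which reads TGTTTTG on the other strand, or to the cAMP response core TGACGT, which reads ACGTCA on the other strand. The windows are chr11:7197537-7197836 (plus strand) for Igfbp1, chr11:101367466-101367765 (plus strand) for G6pc, chr8:11008880-11009179 (minus strand) for Irs2 and chr2:173152823-173153122 (plus strand) for Pck1.
G6pc: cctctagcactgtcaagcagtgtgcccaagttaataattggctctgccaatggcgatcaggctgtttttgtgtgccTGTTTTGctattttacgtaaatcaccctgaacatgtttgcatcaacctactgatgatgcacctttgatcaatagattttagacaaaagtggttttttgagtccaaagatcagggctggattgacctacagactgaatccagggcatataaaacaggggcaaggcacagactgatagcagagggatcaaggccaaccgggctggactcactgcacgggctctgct
Igfbp1: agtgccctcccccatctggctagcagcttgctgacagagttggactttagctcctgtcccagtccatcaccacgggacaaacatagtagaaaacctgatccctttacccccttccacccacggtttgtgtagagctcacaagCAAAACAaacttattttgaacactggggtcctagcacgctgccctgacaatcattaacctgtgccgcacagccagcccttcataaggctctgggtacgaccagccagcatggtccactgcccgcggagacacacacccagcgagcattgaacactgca
Irs2: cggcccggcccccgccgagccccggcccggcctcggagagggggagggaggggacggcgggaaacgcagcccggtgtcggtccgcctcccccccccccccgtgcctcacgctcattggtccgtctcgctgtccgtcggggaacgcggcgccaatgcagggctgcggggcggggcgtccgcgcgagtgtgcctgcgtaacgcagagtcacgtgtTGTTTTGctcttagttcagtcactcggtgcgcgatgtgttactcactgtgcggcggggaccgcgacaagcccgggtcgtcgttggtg
Pck1: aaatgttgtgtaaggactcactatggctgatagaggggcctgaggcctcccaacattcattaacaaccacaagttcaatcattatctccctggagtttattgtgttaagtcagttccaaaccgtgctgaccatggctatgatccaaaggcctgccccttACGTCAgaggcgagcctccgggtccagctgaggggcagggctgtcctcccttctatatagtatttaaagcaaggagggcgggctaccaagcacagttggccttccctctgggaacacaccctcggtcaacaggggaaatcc

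The insulin response core began 108 bases before the start of Igfbp1, 174 bases before that of G6pc and 37 bases before that of Irs2, each time once, and Irs1 held 2 matches. The cAMP response core was found once in Pck1, 91 bases before the start, and once in Ppargc1a, 50 bases before it. Fbp1, Pcx (2 windows) and Foxo1 held neither, and none of the windows held another motif searched, the FOXO core GTAAACA, which reads TGTTTAC on the other strand. Of all 32851 mouse windows of this length, 6.28% held the insulin response core, 7.51% the cAMP response core and 3.65% the FOXO core. The motifs share no letters in these windows, and a match describes the sequence and not binding. The promoter table gave windows for 9 of the 10 members, and Insr had none.

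Values are on a log2 scale on which 0 is the 75th percentile of signal on that array, called log2 units below, so they compare livers for 1 probe and do not rank genes by level. All 13 member probes were above background on all 10 arrays and no spot on any array was saturated. The share of spots above background ran from 55.5% to 59.1% of an array, and the number of arrays limits the precision. Defining hepatocyte genes such as Alb and Ttr were measured in every liver, and the mean level of the 10 hepatocyte markers was 7.77 to 8.20 log2 units with ethanol and 7.87 to 8.18 in controls. Of the fat cell markers Adipoq, Plin1 and Retn did not pass the filter on dim probes while Lep and Cfd did, and Cfd averaged 3.31 ± 2.25 log2 units with ethanol and 4.27 ± 0.70 in controls (SD, n = 5 each). Of the pancreas markers Pnlip, Cpa1 and Ins2 did not pass while Cela1, Ctrb1 and Amy2a5 did. The arrays lay on 3 slides. Ethanol replicate 4 shared slide 1 with control replicates 4 and 5, ethanol replicates 1, 2, 3 and 5 shared slide 3 with control replicate 2, and slide 2 held control replicates 1 and 3 alone. Slide column 1 held only ethanol replicates 2 and 3, and slide column 4 only control replicates 1, 4 and 5. Slide column and group were thus partly confounded.

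No member passed an adjusted p of 0.05 between ethanol and control livers in limma, with Benjamini-Hochberg adjustment over all 15089 genes. The smallest adjusted p of a member was 0.327, and over all genes 3 passed, or 0.0199%. At an unadjusted p under 0.05 there were 2 of 10 members, G6pc and Fbp1, both higher with ethanol, against 13.3% of all genes (8.12% higher and 5.22% lower with ethanol). The groups did not overlap for 0 of 10 members and for 3.05% of all genes (1.97% higher and 1.07% lower). Ethanol livers averaged higher for 7 members and lower for 3, against 56.8% of all genes higher and 43.2% lower. That split depends on the scaling, since quantile normalization gave 47.6% of all genes higher and 5 members higher, and 50th percentile scaling gave 36.8% of all genes and 6 members. The median difference of the members was 0.11 log2 units, against 0.03 over all genes. In whole tissue, fewer cells of a type and less RNA per cell cannot be told apart.

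**Figure D1:**
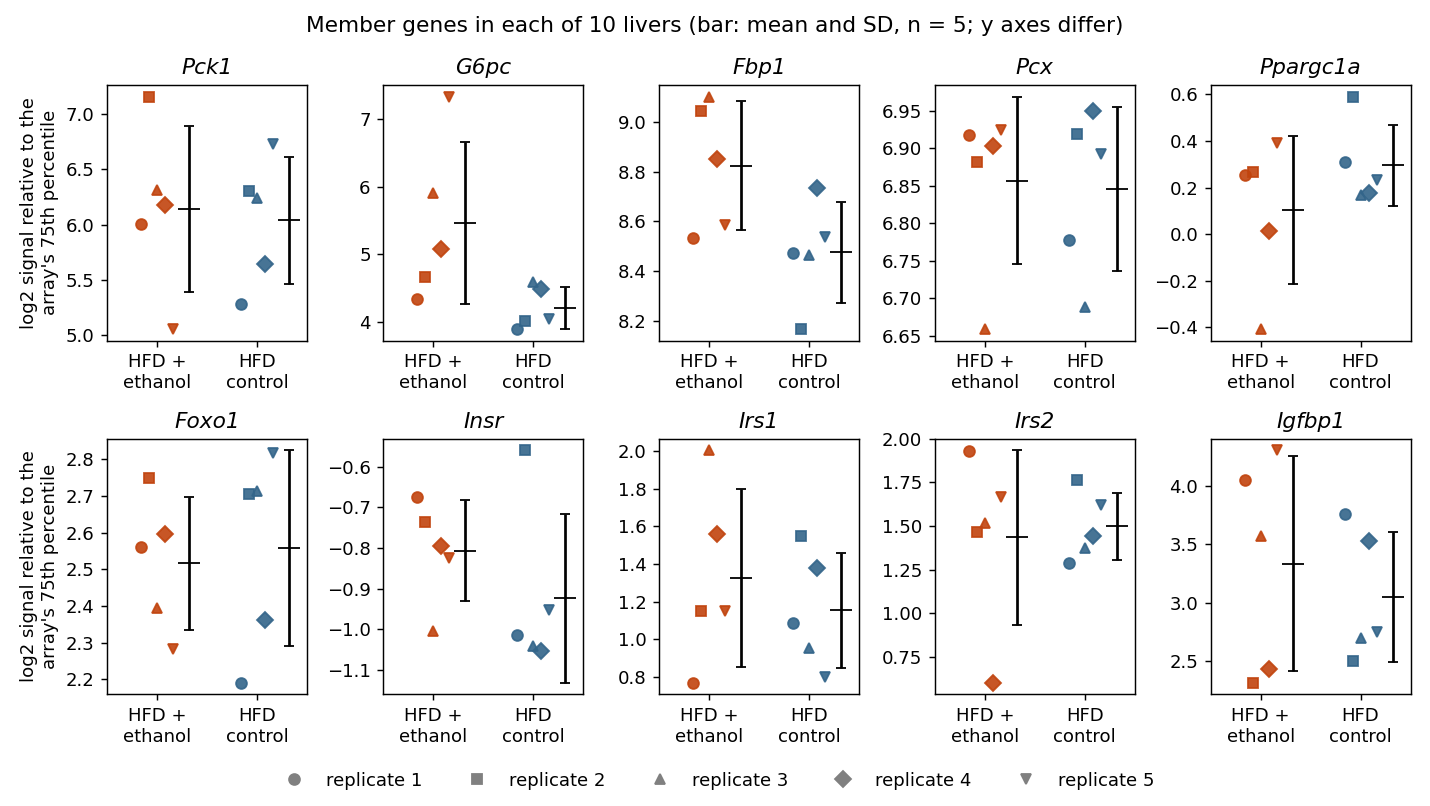
Each panel gives 1 member gene, with log2 units as defined above on the y axis (the scales differ), ethanol livers in orange left of control livers in blue, marker shapes for replicate numbers and bars for the mean and SD of 5 livers. Ethanol replicate 5 stands highest for G6pc at 7.33 and lowest for Pck1 at 5.06, and the groups overlap in every panel.

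G6pc encodes the catalytic subunit of glucose-6-phosphatase, the enzyme of the last step, which frees glucose for export. Its signal was 4.35, 4.66, 5.90, 5.08 and 7.33 log2 units in ethanol replicates 1 to 5, against 3.91, 4.01, 4.60, 4.49 and 4.05 in control replicates 1 to 5. All 5 ethanol livers lay above the control mean and 4 above the highest control, while ethanol replicate 1 lay inside the control range. The means were 5.46 ± 1.19 with ethanol and 4.21 ± 0.31 in controls (SD, n = 5 each). The difference of 1.25 ± 0.49 log2 units (SE), or 2.38-fold, had a 95% interval of 0.17 to 2.34 and did not pass the threshold (limma, unadjusted p = 0.0277, adjusted p = 0.327). It was the largest difference of the 10 members, and 0.649% of all genes differed by as much or more. The ethanol livers were also the more spread, with an SD 3.82 times that of the controls.

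Replicate 5 weighed most on this difference. Without that liver the difference in G6pc was 0.79 log2 units (adjusted p = 0.310), and the other 9 single-array omissions gave up to 1.53. A fit that blocks on slide gave 1.21 ± 0.71 (SE, limma, unadjusted p = 0.123). One with slide column as a covariate gave 1.03 ± 0.65 (SE, limma, unadjusted p = 0.145). The arrays of slide 1 gave 0.81 and those of slide 3 gave 1.55, each with 1 array in an arm. All of these had ethanol higher. The direction of G6pc was the same under all 28 alternative settings, and none brought an adjusted p under 0.165. Some of the 28 could not turn a sign, here or for the members below. The other floors and filters, the replicate block and the variance model left the difference of every member unchanged. So did the mean of probes for members with 1 probe, G6pc among them.

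Fbp1, fructose-1,6-bisphosphatase, catalyses the regulated step that undoes phosphofructokinase. It had 8.53, 9.05, 9.10, 8.85 and 8.58 log2 units in ethanol replicates 1 to 5, against 8.47, 8.17, 8.47, 8.73 and 8.54 in control replicates 1 to 5. Ethanol replicates 2, 3 and 4 exceeded every control, and ethanol replicates 1 and 5 sat among the controls. The means of 8.82 ± 0.26 with ethanol and 8.48 ± 0.20 in controls (SD, n = 5 each) differed by 0.35 ± 0.14 log2 units (SE), or 1.27-fold, with a 95% interval of 0.04 to 0.66. The test did not pass after adjustment (limma, unadjusted p = 0.0317, adjusted p = 0.334). Blocking on slide gave 0.45, slide 1 by itself 0.22 and slide 3 by itself 0.65. The difference kept its direction under all 28 settings, counting those that left it unchanged. Its lowest value was 0.18 (unadjusted p = 0.215), without the 2 arrays in slide column 1, which held ethanol replicates 2 and 3.

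Pck1, cytosolic phosphoenolpyruvate carboxykinase, makes phosphoenolpyruvate from oxaloacetate and is raised by fasting. Ethanol replicates 1 to 5 had 6.01, 7.16, 6.31, 6.17 and 5.06 log2 units, against 5.28, 6.31, 6.24, 5.64 and 6.73 in control replicates 1 to 5. Both the highest liver (ethanol replicate 2) and the lowest (ethanol replicate 5) drank ethanol, and the controls lay between them. The means were 6.14 ± 0.75 with ethanol and 6.04 ± 0.57 in controls (SD, n = 5 each), a difference of 0.10 ± 0.38 (SE) whose 95% interval ran from -0.73 to 0.94 (limma, adjusted p = 0.926). The sign of this difference turned in 8 of 28 settings, among them quantile normalization (-0.01), the slide as a block (-0.10) and each slide alone (-0.01 and -0.17).

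Pcx, pyruvate carboxylase, feeds carbon from pyruvate into the pathway inside mitochondria. Its 5 ethanol livers ran from 6.66 to 6.92 log2 units with a median of 6.90, and its 5 control livers from 6.69 to 6.95 with a median of 6.89. Replicate 3 was the lowest liver of each group. The difference was 0.01 ± 0.08 log2 units (SE) with a 95% interval of -0.17 to 0.19 (limma, adjusted p = 0.958), the narrowest interval of the members. Its direction turned in 11 of 28 settings, among them both other scalings (-0.08 each).

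Ppargc1a encodes PGC-1α, a coactivator that glucagon raises in the fasted liver and that works with FOXO1 on gluconeogenic genes. The ethanol livers had 0.25, 0.27, -0.41, 0.01 and 0.39 log2 units for replicates 1 to 5, against 0.31, 0.59, 0.17, 0.18 and 0.23 in the control livers. Replicate 3 was low in the ethanol group and replicate 2 high in the control group. The difference of -0.19 ± 0.15 (SE, 95% interval -0.53 to 0.15) did not pass (limma, adjusted p = 0.575), and a second, dimmer probe gave -0.13 ± 0.19. The value was negative under all 28 settings, counting those that left it unchanged. It lay between -0.47 within slide 3 and -0.06 without ethanol replicate 3.

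Foxo1, the insulin-restrained transcription factor itself, is controlled largely after translation, which RNA does not show. Its RNA was at 2.56, 2.75, 2.39, 2.60 and 2.28 log2 units in ethanol replicates 1 to 5, against 2.19, 2.71, 2.71, 2.36 and 2.82 in control replicates 1 to 5. The extremes on both sides were controls. The means were 2.52 ± 0.18 with ethanol and 2.56 ± 0.27 in controls (SD, n = 5 each), and the difference of -0.04 ± 0.14 (SE, 95% interval -0.35 to 0.27) did not pass (limma, adjusted p = 0.918). The other Foxo1 probe gave 0.09 ± 0.13, of opposite sign.

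Insr encodes the insulin receptor. Its signal was -0.67, -0.74, -1.004, -0.79 and -0.83 log2 units in ethanol replicates 1 to 5, against -1.01, -0.56, -1.04, -1.05 and -0.95 in control replicates 1 to 5. Control replicate 2 was the highest of all 10 livers, while the other 4 controls lay below 4 of the 5 ethanol livers. The difference was 0.12 ± 0.11 (SE, 95% interval -0.13 to 0.36; limma, adjusted p = 0.643), and the second probe gave 0.22 ± 0.13. Without control replicate 2 it was 0.21, and within slide 3, where that liver is the only control, it was -0.25.

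The receptor substrates link the receptor to the kinase cascade, Irs2 being the one that FOXO1 raises in liver. Irs1 had 0.77, 1.15, 2.00, 1.56 and 1.15 log2 units in ethanol replicates 1 to 5, against 1.09, 1.55, 0.96, 1.38 and 0.80 in control replicates 1 to 5. For Irs2 the ethanol livers gave 1.93, 1.46, 1.51, 0.60 and 1.66 log2 units, against 1.29, 1.76, 1.37, 1.44 and 1.62 in the control livers. Ethanol replicate 4 was far below every other liver for Irs2, and the other ethanol livers ran from 1.46 to 1.93. Irs1 differed by 0.17 ± 0.23 (SE, 95% interval -0.33 to 0.68; limma, adjusted p = 0.755), and by 0.0035 without ethanol replicate 3 and 0.31 without ethanol replicate 1. Irs2 differed by -0.06 ± 0.22 (SE, 95% interval -0.54 to 0.42; limma, adjusted p = 0.920). The Irs2 difference turned to 0.15 without ethanol replicate 4 and was -0.93 within slide 1, where that liver stood alone for its group.

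Igfbp1 encodes a binding protein for insulin-like growth factors that the liver secretes and that insulin lowers within hours. Ethanol replicates 1 to 5 had 4.05, 2.32, 3.57, 2.44 and 4.30 log2 units, against 3.76, 2.50, 2.70, 3.53 and 2.75 in control replicates 1 to 5. High and low livers stood in both groups, and no liver lay between 2.75 and 3.53. The means were 3.34 ± 0.92 with ethanol and 3.05 ± 0.56 in controls (SD, n = 5 each), a difference of 0.29 ± 0.43 (SE, 95% interval -0.66 to 1.23; limma, adjusted p = 0.785). Within slide 1 it was -0.71 and within slide 3 it was 1.06. Leaving out 1 array moved it to between 0.045, without ethanol replicate 5, and 0.54, without ethanol replicate 2.

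**Figure D2:**
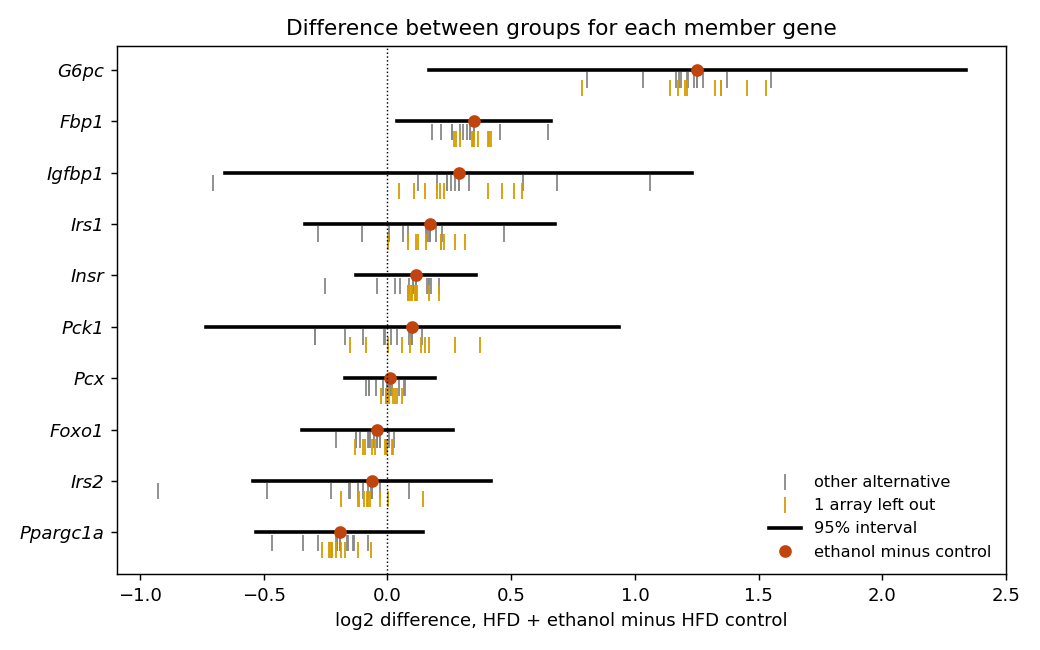
Points give the difference in log2 signal, HFD + ethanol minus HFD control, for each member on the y axis, bars its 95% interval from limma with 5 livers a group, and short ticks the value when 1 array is left out or under another processing alternative. The intervals of G6pc (0.17 to 2.34) and Fbp1 (0.04 to 0.66) lie above 0 before adjustment over all genes, and the other 8 cover 0.

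The members differed in how much they varied among mice of a group. The within-group SD was 0.873 log2 units for G6pc, more than for 98.2% of all genes, 0.758 for Igfbp1 (96.9% of genes) and 0.668 for Pck1 (95.4% of genes). It was 0.111 for Pcx, more than for 15.0% of genes, and the median over all genes was 0.202.

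Across the 10 livers, 45 pairs of members were correlated, with 20 positive and 25 negative coefficients. Pck1 and Foxo1 went together (Pearson r = 0.858, permutation p = 0.00084, Benjamini-Hochberg adjusted over the 45 pairs p = 0.0378), and they were the only pair past that threshold. Their Spearman rho was 0.842 (permutation p = 0.0038, adjusted p = 0.171), which did not pass. Livers rich in Pck1, such as ethanol replicate 2 and control replicate 5, were rich in Foxo1, and livers poor in Pck1, such as ethanol replicate 5 and control replicate 1, were poor in it. The coefficient was 0.864 without the 2 livers farthest from the Pck1 median, where 0 of the 45 pairs passed with 8 livers left, 0.820 to 0.919 when each liver was left out, 0.863 after taking away group and slide, and 0.803 for the second Foxo1 probe. Single slides held 2 to 5 arrays, too few for a coefficient of their own. With group means taken away the r was 0.874, and 0.981% of all genes lay at least as far from 0 in their r with Pck1. The permutation for that r (adjusted p = 0.0239) shuffled the deviations across both groups as if no means had been fitted. Its p is therefore too small and cannot decide whether the pair passes without group means.

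Igfbp1 ran opposite to both. Its r was -0.780 with Pck1 (permutation p = 0.00624, rho = -0.685 with p = 0.0343) and -0.791 with Foxo1 (permutation p = 0.0109, rho = -0.721 with p = 0.0231). Neither passed after adjustment over the 45 pairs (adjusted p = 0.122 each, and 0.385 each for rho). Without the 2 livers farthest from the median of the first gene, r was -0.589 with Pck1 and -0.701 with Foxo1. With group means taken away its r with Pck1 was -0.819, and 3.53% of all genes were at least as far from 0. G6pc and Pck1, which share the pathway, did not go together (r = -0.380, permutation p = 0.277, rho = -0.006), and their r was 0.229 without the 2 farthest livers. The fourth pair at an unadjusted p under 0.05 was Fbp1 with Ppargc1a (r = -0.761, permutation p = 0.00983, adjusted p = 0.122, rho = -0.515). With group means taken away their r was -0.724, and 12.2% of all genes were at least as far from 0 in their r with Fbp1.

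**Figure D3:**
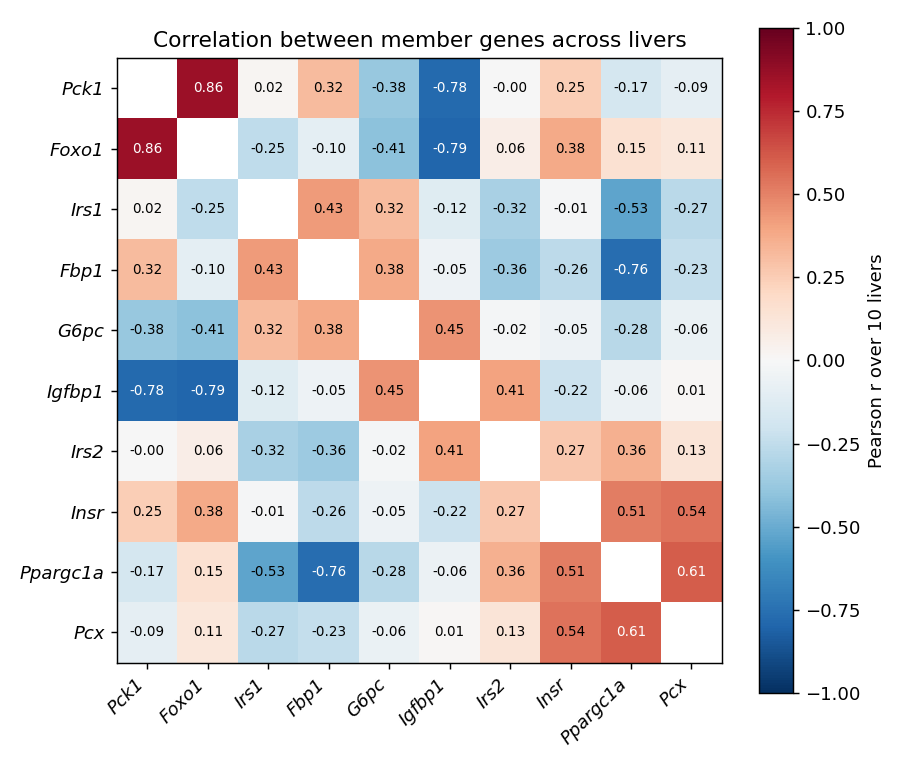
Each cell gives Pearson r between the log2 signals of 2 members over 10 livers, 5 per group, from -1 in blue to 1 in red. Pck1 with Foxo1 is the reddest cell at 0.86, and Igfbp1 is blue against both of them at -0.78 and -0.79.

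**Figure D4:**
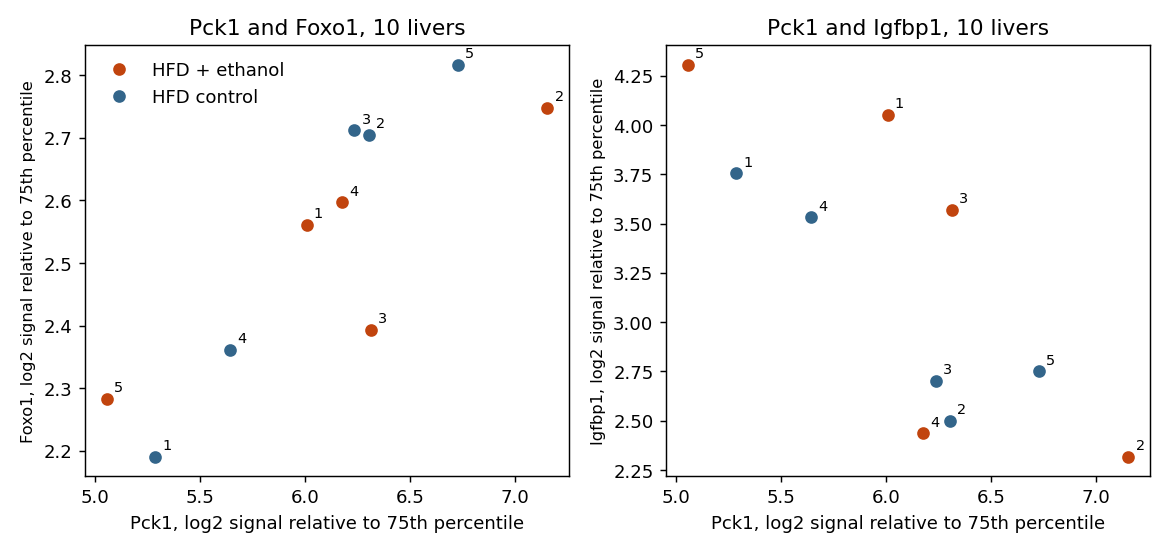
Each point is 1 liver, orange for HFD + ethanol and blue for HFD control with its replicate number, with log2 Pck1 signal on the x axis and log2 Foxo1 (left) or Igfbp1 (right) signal on the y axis. Over the 10 livers Foxo1 goes up with Pck1 (r = 0.858) and Igfbp1 goes down (r = -0.780).

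The tested genes most like each member were found by Pearson r of deviations from the group means over the 10 livers, among 15086 genes. For Pck1 they were Slco4a1 (0.973) and Pnpla1 (0.965), for G6pc Utp14a and Gm32556 (0.920 each), and for Fbp1 Tank (0.987) and Arih1 (0.971). Pcx was followed most closely by Dnm2 (0.986) and Wdr83os (0.968), Ppargc1a by Abcc2 (0.969) and Jarid2 (0.951), and Foxo1 by Stim1 (0.947) and Zbtb11os1 (0.943). The remaining members gave Gm6567 (0.965) and Dynlrb1 (0.957) for Insr, Fbxl20 (0.959) and Slc39a8 (0.926) for Irs1, Slc4a1 (0.944) and Olfr53 (0.938) for Irs2, and Bco1 (0.969) and Pklr (0.959) for Igfbp1. No member appears among these neighbours. For the closest pair of members, 148 genes were at least as far from 0 as Foxo1 in their r with Pck1, and 74 as Pck1 in their r with Foxo1, the partner counted in each. These are the highest coefficients picked from many, over 10 livers that share 3 slides, and they carry no test.

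The other genes of these pathways were followed as lists, each given by its counts and median. Over all genes 56.8% were higher and the median was 0.03 log2 units, 13.3% had an unadjusted p under 0.05 (8.12% higher, 5.22% lower) and 3.05% had groups that do not overlap. None of their members passed the adjusted threshold in limma. Among 28 other enzymes and carriers of gluconeogenesis, 20 averaged higher with ethanol and 8 lower, with a median of 0.13 log2 units, and 7 had an unadjusted p under 0.05, 6 of them higher. With quantile normalization or 50th percentile scaling 16 were higher and 12 lower. Gpi1, the isomerase of glucose 6-phosphate and fructose 6-phosphate, had 7.58, 6.81, 7.13, 7.10 and 7.94 log2 units in ethanol replicates 1 to 5, against 6.52, 6.25, 6.07, 6.62 and 6.34 in control replicates 1 to 5. No ethanol liver reached down into the control range, and the difference was 0.95 ± 0.20 (SE, limma, adjusted p = 0.166). Gpd1, which links glycerol 3-phosphate to the pathway, also had groups apart, at 0.63 ± 0.14 (SE, adjusted p = 0.175). Slc37a4, the carrier that brings glucose 6-phosphate to G6pc in the endoplasmic reticulum, was at 0.46 ± 0.14 (SE, adjusted p = 0.259), a gene singled out after its values were seen. These enzymes other than Slc37a4 also serve glycolysis or lipid synthesis, and RNA does not tell the direction of flux.

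The 29 regulators of gluconeogenesis divided into 17 higher and 12 lower, with a median of 0.05 log2 units, and into 12 higher and 17 lower with 50th percentile scaling. The smallest p-values belonged to Cebpa, a hepatocyte transcription factor (0.28 ± 0.08, SE), to Foxo4, a relative of Foxo1 (1.26 ± 0.50), and to Nr4a1, an early nuclear receptor gene induced by cAMP (-0.35 ± 0.14), with adjusted p from 0.243 to 0.334. With slide column as a covariate the Foxo4 difference was 0.16, and its highest livers were ethanol replicates 2 and 3, the column 1 arrays. The 23 genes of the insulin pathway gave 13 higher and 10 lower and a median of 0.04, against 8 higher and 15 lower with 50th percentile scaling. Akt2, the main AKT kinase of hepatocytes, was at 4.06, 4.16, 4.05, 4.05 and 4.10 log2 units in ethanol replicates 1 to 5, against 3.69, 3.99, 4.01, 3.87 and 3.83 in control replicates 1 to 5. The groups did not overlap, but the difference was small at 0.21 ± 0.08 (SE, limma, adjusted p = 0.316). Mtor, the kinase of growth control, was at 0.27 ± 0.09 (SE, adjusted p = 0.291) and Pik3cb, a catalytic subunit of phosphoinositide 3-kinase, at 0.18 ± 0.08 (SE, adjusted p = 0.359).

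Inhibitors of the insulin pathway gave 6 higher and 11 lower of 17 (2 and 15 with 50th percentile scaling), a median of -0.03 log2 units and 0 at an unadjusted p under 0.05. The smallest p-values were those of Grb10, an adaptor that binds the receptor (-0.41 ± 0.20, SE, above background on 3 ethanol and 4 control arrays), Enpp1 (-0.14 ± 0.08) and the cytokine-induced Socs3 (-0.67 ± 0.46), with adjusted p from 0.393 to 0.519. Of 15 further genes that insulin lowers or FOXO1 drives, 9 were higher and 6 lower, with a median of 0.07, and 7 higher and 8 lower with 50th percentile scaling. Mttp, which loads lipid onto lipoproteins, was at 0.39 ± 0.10 (SE, limma, adjusted p = 0.212), while the FOXO target Sesn3 was at -0.46 ± 0.19 (adjusted p = 0.334) and Trib1 at -0.18 ± 0.09 (adjusted p = 0.390).

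Of 15 genes that insulin raises in liver, 12 averaged higher with ethanol and 3 lower, also under both other scalings, with a median of 0.50 log2 units, and 6 had an unadjusted p under 0.05, 5 of them higher. Acly, which makes cytosolic acetyl-CoA, had 5.57, 4.88, 4.67, 6.34 and 7.28 log2 units in ethanol replicates 1 to 5, against 4.10, 3.95, 3.92, 4.83 and 3.93 in control replicates 1 to 5. Ethanol replicate 5 was again the highest liver, as it was for 12 of the 15 genes of this list and for G6pc and Igfbp1. It was highest for 8 of the 28 other enzymes and carriers, 2 of the 29 regulators and 4 of the 23 insulin pathway genes. For the inhibitors it was 2 of 17 and for the FOXO1 targets 3 of 15. The share of all genes that were highest in this liver is not given here. Acly differed by 1.60 ± 0.46 (SE, limma, adjusted p = 0.230), the fatty acid elongase Elovl6 by 1.34 ± 0.40 (adjusted p = 0.246) and malic enzyme Me1 by 0.99 ± 0.27 (adjusted p = 0.212). Without ethanol replicate 5 the list gave 9 higher and 6 lower, with 57.4% of all genes higher, and a median of 0.32, and the difference in Acly was 1.22.

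**Figure D5:**
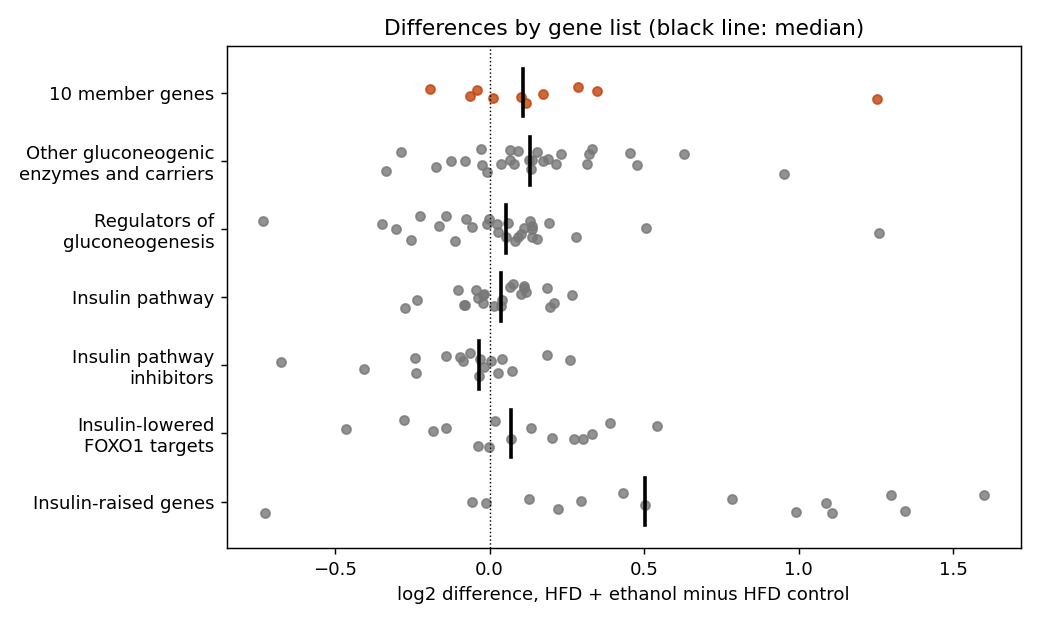
Each point is the difference in log2 signal of 1 gene, HFD + ethanol minus HFD control, on the x axis, with the 10 members in orange on top, the pathway lists in grey under them and black lines for medians. The medians lie between -0.03 for inhibitors of the insulin pathway and 0.50 for insulin-raised genes, with 0.11 for the members.

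Gluconeogenesis is strongest in hepatocytes near the portal vein, so zone and cell type markers are given beside the members. All 10 periportal markers averaged lower with ethanol, with a median of -0.18 log2 units, mean levels of 3.42 to 4.28 in ethanol livers and 4.00 to 4.58 in control livers, and 0 past the adjusted threshold. With either ethanol replicate 1 or ethanol replicate 5 taken out, 6 of the 10 were lower. The slide as a block gave 8 lower and slide column as a covariate 7. Within slide 3 the count was also 7 and within slide 1 it was 5, with 1 array in an arm each time. The 10 pericentral markers gave 5 higher and 5 lower with a median of 0.01 (3 and 7 with quantile normalization, 2 and 8 with 50th percentile scaling). With slide column as a covariate 1 was higher and 9 lower. The smallest p-values of this list went both ways. Rhbg, a pericentral ammonium carrier, was at 0.70 ± 0.10 (SE, limma, adjusted p = 0.0825). Lect2 was at -0.40 ± 0.14 (SE, adjusted p = 0.305) and Axin2 at -0.28 ± 0.27 (SE, adjusted p = 0.656). Hepatocyte markers gave 6 higher and 4 lower (3 and 7 under both other scalings) and macrophage markers 3 and 4 (2 and 5 under both). Endothelial markers gave 3 and 3 (2 and 4 with 50th percentile scaling) and stellate cell markers 1 and 5. Mean levels of the stellate cell markers were 0.90 to 1.34 log2 units in ethanol livers and 1.11 to 1.58 in control livers. With slide column as a covariate these 4 lists gave, in the same order, 2 and 8, 7 and 0, 5 and 1, and 3 and 3. Of the bile duct markers tested 1 was higher and 3 lower, of lymphocyte markers 1 and 4, of fat cell markers 1 and 1, and of pancreas markers 2 and 1 (1 and 2 with 50th percentile scaling). The part of these lists in the values of G6pc and Fbp1 was not tested.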

How the data were processed

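Liver RNA of 10 mice was measured on 1-colour Agilent arrays. The authors deposited spot intensities on a linear scale, made per the file headers with Agilent Feature Extraction 10.7.3.1 on a design for mm9, where the processed intensity is background-subtracted. They also deposited a table of log2 values, whose differences between arrays follow those used here over 27809 bright probes (r of 1, and within 0.0205 for 99% of them). Its direction and scale are thus known, but what each probe was centred on is unknown. Its column medians were 0.02, -0.0036, -0.01, -0.0020 and 0.05 for ethanol replicates 1 to 5 and -0.12, 0.08, 0.02, -0.07 and -0.07 for control replicates 1 to 5.

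Here, control and outlier spots were left out, processed intensity was divided by the array's 75th percentile (277.0 to 383.3 signal units), floored at 4 units of signal and put on the log2 scale. A probe was kept if well above background on at least 4 of 5 arrays of a group (31110 of 56605). Accessions were named through the RefSeq table of GRCm38.p6, which gave 1 symbol for 32994 probes and none for 23611. The probe with the highest mean stood for its gene. Ethanol and control groups were tested in limma 3.58.1 (lmFit and eBayes, R 4.3.3), and the 15089 p-values were adjusted by Benjamini-Hochberg with a threshold of 0.05. The script was tested on simulated data. Correlations used 100000 two-sided permutations in numpy, with ranks and the adjustment over pairs from scipy 1.17.1.

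Members and lists were chosen with earlier results of these data known. Named list genes are those with the 3 smallest p-values and, in 5 lists, those whose groups do not overlap. Some list genes are not reported here by name. Alternatives changed scaling, background, floor, filter, probe rule, source, slide, array position, replicate block, variance model and single arrays. The labels share replicate numbers between groups but do not tie them to litters or batches. Each gene's group mean was taken away, and the deviations of same-numbered arrays were correlated over the tested genes. These coefficients were 0.324, 0.148, 0.311, 0.0643 and -0.11 for numbers 1 to 5, so the numbers were not used as pairs.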

Additional observations from a re-analysis of the deposited data

Results flagged for a closer look

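In groups of 5 livers, Dixon's test at a critical value of 0.71 was run on 114 groups over 57 named genes. It singled out 7 values, where chance gives about 1 in 20 groups, so the number is close to that share. Ethanol replicate 3 and control replicate 2 were each singled out for more than 1 gene. Among the members, ethanol replicate 3 had 6.66 log2 units for Pcx, under the 6.88 to 6.92 of the other ethanol livers. Control replicate 2 had -0.56 for Insr, above the -1.05 to -0.95 of the other controls. Of the insulin pathway and insulin-raised genes, Pik3cb was at -0.40 in control replicate 1 with the other controls at -0.18 to -0.15, and Acly was at 4.83 in control replicate 4 with the other controls at 3.92 to 4.10. Among cell markers, Pigr was at 7.59 in ethanol replicate 4 and at 6.40 to 6.63 in the other ethanol livers. Cd3e was at 1.92 in control replicate 2 and at 1.15 to 1.34 in the other controls. Cela1 was at 4.81 in ethanol replicate 3 and at 3.81 to 3.90 in the other ethanol livers.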

How the results depend on the processing

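No member passed an adjusted p of 0.05 under any alternative run. G6pc, Fbp1 and Ppargc1a kept their direction in all 28. The other floors and filters, the replicate block and the variance model left every member difference unchanged, so they could not turn a sign. The count over all genes, 3 as reported, was 7 with normexp (on median signals, as no mean signal was used), 5 with a floor of 16, 6 with no filter on dim probes, 0 with the slide as a fixed block, 12 with it as a random block, 0 within slide 1 or slide 3 alone, 0 with slide column as a covariate, 9 with a trended robust variance and 15 with array weights. It was 0 to 7 when 1 array was left out, 0 without ethanol replicate 1, control replicate 4 or control replicate 5, and 1 without ethanol replicate 2. The replicate block gave 0 genes and 0 members. In deviations from the group means, 2 of 5 ethanol arrays correlated best with the control array of their own number. Groups of members that do not overlap, 0 as reported, were 7 within slide 1 and 4 within slide 3, where 1 array makes up an arm, and 0 to 1 when 1 array was left out. Of the 45 pairs, 1 passed as reported and 0 passed without the 2 livers farthest from the median, with 8 livers left. After taking away group means 1 pair fell under the threshold, by a permutation that makes p too small.

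Differences that changed sign were those of Pck1 (-0.011 with quantile normalization, -0.10 with the slide block, -0.013 within slide 1, -0.17 within slide 3, -0.29 with the column covariate and -0.29 without the column 1 arrays) and of Pcx (-0.085 with quantile normalization, -0.076 with 50th percentile scaling, -0.0026 in the authors' values, -0.048 with the slide block, -0.018 within slide 1 and -0.073 within slide 3). Insr was at -0.042 with the slide block and -0.25 within slide 3, Irs1 at -0.28 within slide 3 and -0.10 with the column covariate, Irs2 at 0.087 with the random block, Foxo1 at 0.025 with the mean of its probes and 0.0081 within slide 1, and Igfbp1 at -0.71 within slide 1. Leaving out 1 array gave -0.15 to 0.37 for Pck1, -0.028 to 0.061 for Pcx, -0.13 to 0.024 for Foxo1 and -0.19 to 0.15 for Irs2. The cause of these changes was not tested. The median of all genes moved from 0.03 to -0.06 with 50th percentile scaling.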
